A study of Mustela putorius furo with 2 samples.

Results

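The G2 and mitosis genes described here are 46 named genes that act from the end of DNA replication to the separation of the daughter cells, measured in single cells of the ferret cortex. They were taken by symbol from a list. UMIs (unique molecular identifiers, each standing for 1 captured RNA molecule) were found for 45 of the 46, out of 21317 gene names with a UMI in the table. HJURP, the chaperone that loads the centromeric histone, stands among the names that hold no UMI in any cell and was treated as unmeasured.

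The cells came from the dorsal cortex of ferret pups of wild-type genotype, taken on postnatal day 3, dissociated with papain and captured on the Chromium droplet platform. There was 1 group, with no treatment and no mutant, made as 2 libraries. The deposited table holds both together, and the cell barcodes carry 2 suffixes, called library A and library B here. The labels tie neither suffix to a replicate number and do not state whether different animals were used, so the p-values below measure only how class differences vary between these 2 samples, which may be technical.

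Entry into mitosis is driven by the kinase CDK1 bound to a B-type cyclin. Aurora and Polo kinases then build the spindle, the kinetochore ties each chromosome to it, and a checkpoint holds the cell until every chromosome is attached. The anaphase promoting complex ends mitosis by marking securin and the cyclins for destruction, and the cleavage furrow splits the cell. RNAs of many of these genes peak late in the cell cycle and are low in cells that have left it. In the cortex of a ferret at this age the cycling cells are expected among radial glia, which carry HOPX where they lie in the outer germinal zone, among neuronal intermediate progenitors marked by EOMES, and among glial progenitors that carry EGFR and OLIG1.

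Library A held 9782 cells (9780 kept after filtering, 41836475 UMIs, median 3602.5 per cell) and library B 5005 cells (4993 kept, 18907140 UMIs, median 3068). Only 21 barcode sequences occurred in both. The 45 genes together held 160504 UMIs in library A and 72466 in library B, which was 0.384% of all UMIs in each. Cells were put in classes by UMIs of a few marker genes: at least 2 of HOPX, at least 2 of EOMES, at least 1 each of EGFR and OLIG1, or a set of endothelial, perivascular, microglial or red cell markers, pooled as non-neural. Cells passing the gates of more than 1 class were left out.

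A cell was called dividing by other genes than those described: it had to hold at least 2 UMIs over at least 2 of 29 measured mitosis genes, such as ASPM, KIF11 and PRC1, none of which is among the 45. Cells with no UMI of these 29 genes served as the non-dividing background. The gate was passed by 22.6% of cells in library A (exact 95% interval 21.8% to 23.5%) and by 24.1% in library B (22.9% to 25.3%). These intervals, like those below, cover counting error only.

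Most RNA of the 45 genes lay in the cells that passed this gate. They held 84.0% of the 45 genes' UMIs in library A and 82.7% in library B, while holding 31.9% and 32.7% of all UMIs. The 45 genes formed a large group with nearly all RNA in these cells and a small group with much RNA elsewhere. In 26 genes more than 90% of the UMIs lay in gate-passing cells in both libraries, the median over the genes was 92.8%, and 7 genes were under 70% in both libraries.

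**Figure D1:**
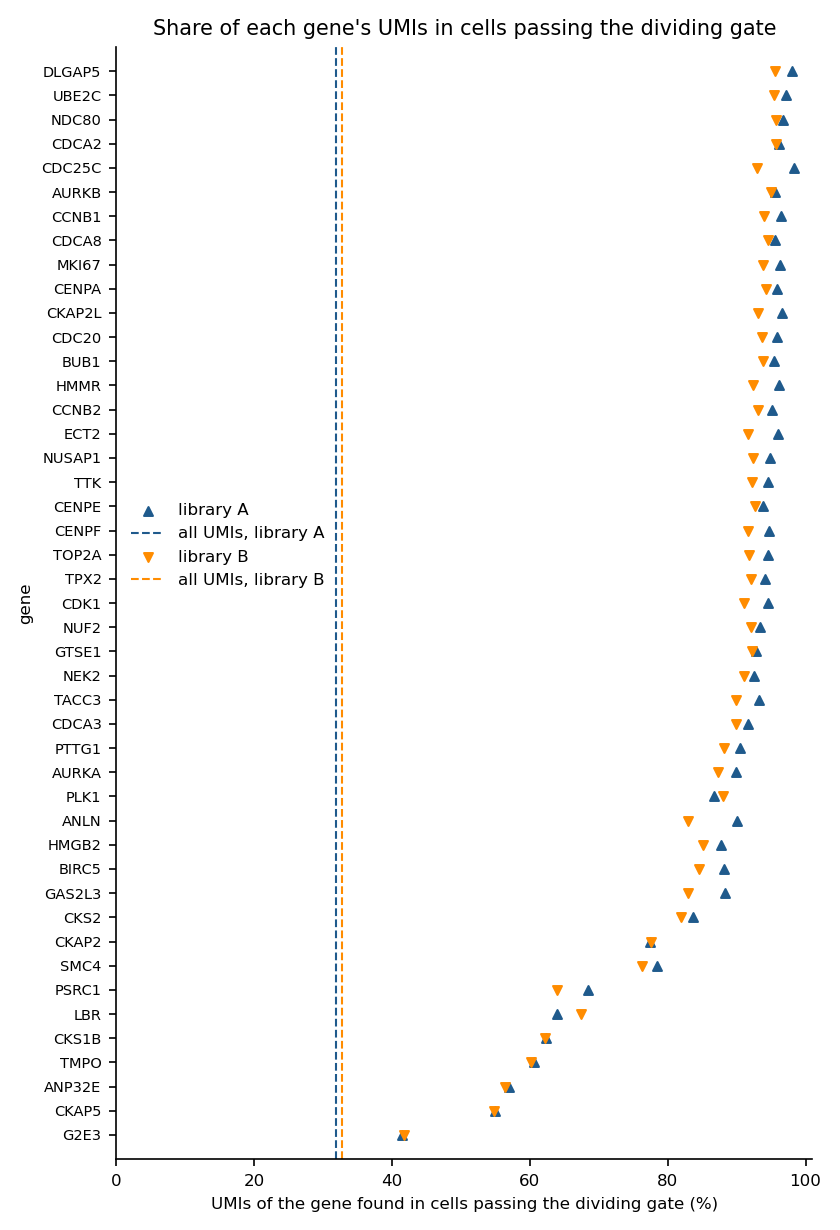
Share of each gene's UMIs found in cells passing the dividing gate (x axis, percent), 1 row per gene, with triangles for library A and library B and dashed lines at the share of all UMIs in those cells. G2E3 at 41.4% and 41.8% lies nearest to the dashed lines at 31.9% and 32.7%, and 26 genes lie above 90% in both libraries.

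The genes with the highest shares in gate-passing cells came from several steps of mitosis. DLGAP5, a protein of the spindle fibres near the kinetochore, had 98.0% of its UMIs there in library A and 95.5% in library B. UBE2C, the ubiquitin-conjugating enzyme of the anaphase promoting complex, had 97.2% and 95.4%. NDC80, which binds microtubules at the kinetochore, had 96.7% and 95.7%, and CDCA2, which brings a phosphatase to chromatin, had 96.2% and 95.8%. CDC25C, the phosphatase that activates CDK1, had 98.4% and 93.0%. AURKB, the kinase of the chromosomal passenger complex, had 95.6% and 95.0%, CCNB1, a B-type cyclin, 96.5% and 93.9%, and CDCA8, another passenger protein, 95.6% and 94.6%. MKI67, the Ki-67 protein that coats mitotic chromosomes and the usual marker of cycling cells, had 96.4% and 93.8%. Even the lowest of these values, 93.0% for CDC25C in library B, was far above the share of all UMIs in these cells.

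The 8 genes with the lowest shares hold chromatin, nuclear envelope and microtubule genes. G2E3, a ubiquitin ligase, was the lowest at 41.4% and 41.8%. CKAP5, a microtubule polymerase, followed with 55.0% and 54.8%, and ANP32E, a chaperone that removes the histone variant H2A.Z, with 56.9% and 56.4%. TMPO, which encodes the lamina-associated LAP2 proteins, had 60.7% and 60.2%. CKS1B, a small subunit of CDK complexes, had 62.4% and 62.2%. The lamin B receptor LBR had 64.0% and 67.4%, the microtubule-binding PSRC1 had 68.5% and 64.0%, and the condensin subunit SMC4 had 78.5% and 76.3%.

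G2E3 was high in neurons without any gate UMI. In such excitatory neurons it reached 86.3 CPM in library A and 80.3 CPM in library B (CPM, a gene's UMIs scaled to a fixed total of UMIs over the summed cells). In HOPX-gated cells with no gate UMI it was 21.2 and 24.5 CPM, so those libraries did not overlap with the neurons. MKI67 in the same neurons was 1.8 and 1.7 CPM. TMPO was at 225 and 217 CPM in these neurons and at 174 and 148 CPM in HOPX-gated cells with no gate UMI.

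The level in gate-passing cells ranged widely between genes. HMGB2, a chromatin protein of the high mobility group, was the highest at 1809 CPM in library A and 1822 CPM in library B. TMPO followed at 746 and 668 CPM, then TOP2A, the topoisomerase that untangles sister DNA, at 633 and 555 CPM, and UBE2C at 545.5 and 594 CPM. The kinetochore protein CENPF was at 457 and 381 CPM and CKS2, the second CDK subunit of its kind, at 405 and 426 CPM. At the low end, ANLN, the anillin scaffold of the cleavage furrow, was at 24.5 and 25.3 CPM and the centrosome kinase NEK2 at 26.0 and 24.8 CPM. PSRC1 was at 29.6 and 30.8 CPM, CDC25C at 36.7 and 27.9, CENPA, the histone of the centromere, at 38.8 and 39.5, and GAS2L3, a linker of actin and microtubules, at 44.0 and 37.1. The libraries were made from polyA RNA and the levels are not per length, so the order between genes is only that of UMIs counted.

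Summed over the 45 genes, dividing EOMES-gated cells stood highest of the 4 classes compared. They reached 15679 CPM in library A and 15077 CPM in library B. Dividing EGFR/OLIG1-gated cells reached 8998 and 9746 CPM, and dividing HOPX-gated cells 8139.5 and 9252 CPM. Those 2 classes overlapped across libraries, though EGFR/OLIG1-gated cells were higher within each library. Both classes lay below the EOMES class in both libraries. Dividing non-neural cells were lowest, at 4572 and 3291 CPM. When every cell was thinned to 1500 UMIs before the gates were applied, the sums were 19659 and 18280 CPM in EOMES-gated, 12602 and 13431 in HOPX-gated, 10140.4 and 13507 in EGFR/OLIG1-gated and 4309.5 and 3588 CPM in non-neural cells, so EOMES-gated cells stayed highest and non-neural cells lowest.

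**Figure D2:**
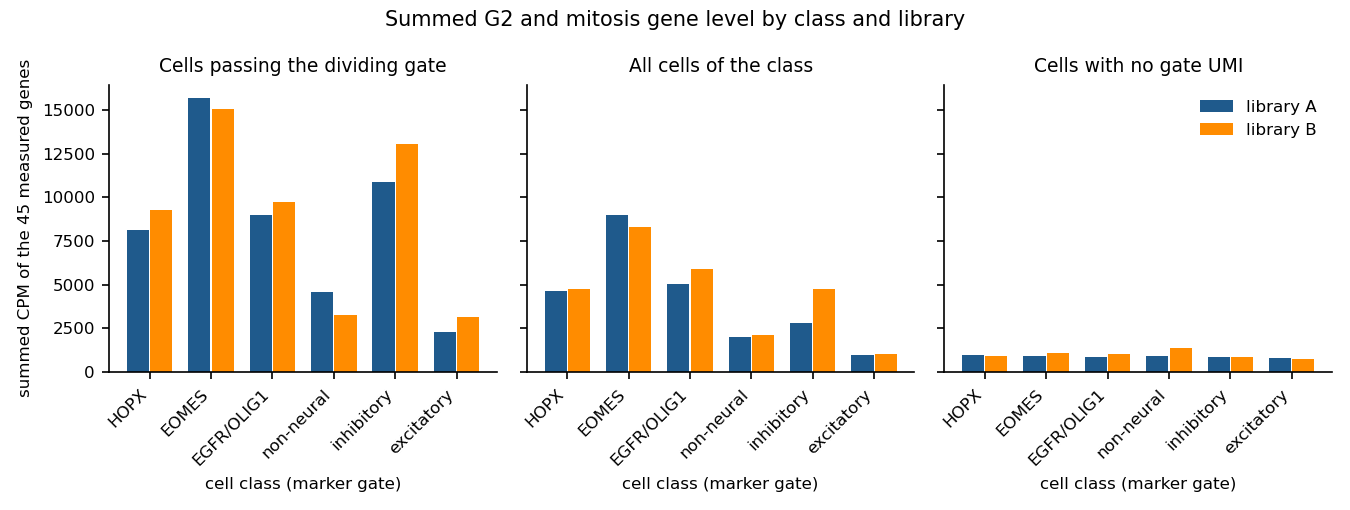
Summed CPM of the 45 measured genes (y axis) in 6 marker-gated classes (x axis), for cells passing the dividing gate, all cells of the class, and cells with no gate UMI, with 1 bar per library. Dividing EOMES-gated cells are at 15679 and 15077 CPM, and without gate UMIs all 6 classes lie between 763 and 1367 CPM.

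Cells with no gate UMI held little RNA of these genes in every class. Their summed level was 994 CPM in library A and 914 CPM in library B for HOPX-gated cells, and 927 and 1063 CPM for EOMES-gated cells. EGFR/OLIG1-gated cells had 866 and 1012 CPM and non-neural cells 922 and 1367 CPM. Excitatory neurons had 786 and 763 CPM and inhibitory neurons 831 and 847 CPM. The HOPX, EOMES, EGFR/OLIG1 and non-neural classes overlapped here, and both neuron classes lay below HOPX, EOMES and EGFR/OLIG1 in both libraries.

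The share of cells passing the gate did not order the classes in the same way. It was 43.7% of 952 HOPX-gated cells in library A (exact 95% interval 40.5% to 46.9%) and 36.5% of 501 in library B (32.3% to 40.9%). It was 42.9% of 1048 EOMES-gated cells (39.9% to 46.0%) and 38.2% of 437 (33.6% to 43.0%). It was 40.5% of 269 EGFR/OLIG1-gated cells (34.6% to 46.7%) and 44.5% of 110 (35.1% to 54.3%), and 33.9% of 257 non-neural cells (28.1% to 40.0%) and 30.9% of 463 (26.7% to 35.3%). These shares depend on depth, since dividing HOPX-gated cells held a median of 6870 and 6821 UMIs and dividing non-neural cells 2220 and 2121. After thinning to 1500 UMIs per cell the shares were 22.1% and 21.0% in HOPX-gated, 30.2% and 29.5% in EOMES-gated, 23.8% and 27.3% in EGFR/OLIG1-gated and 24.9% and 23.1% in non-neural cells. EOMES-gated cells were then highest in both libraries, as in the summed level, but HOPX-gated rather than non-neural cells were lowest.

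The class markers were checked in the dividing cells. HOPX-gated dividing cells held the radial glia genes FABP7 (24380 and 25356 CPM) and VIM (2460 and 2674 CPM) above the EOMES and EGFR/OLIG1 classes in both libraries, as they did SLC1A3, SOX2 and TNC. Of the other 2 genes of that list, PTPRZ1 was at 869 and 686 CPM, against 1172 and 835 CPM in EGFR/OLIG1-gated cells, and PAX6 at 220 and 172 CPM overlapped with EOMES-gated cells at 200 and 193 CPM. HOPX-gated dividing cells also carried the astrocyte genes APOE (576 and 624 CPM), CLU (340 and 308 CPM) and AQP4 (147 and 127 CPM). EOMES-gated dividing cells held the most INSM1 (392 and 348 CPM) and NEUROG2 (118 and 141 CPM), while NHLH1 and PPP1R17, markers of later neuronal progenitors, were near 0. EGFR/OLIG1-gated dividing cells held OLIG2 (300 and 235 CPM) and DLL1 (102 and 106 CPM). Dividing non-neural cells held FABP7 at 4676 and 5082 CPM and INSM1 at 140 and 97 CPM although these are genes of neural progenitors. The mitochondrial share of UMIs over the whole class was 2.54% and 3.46% in non-neural against 0.865% and 0.951% in HOPX-gated cells.

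The first comparison set dividing EOMES-gated cells (450 in library A, 167 in library B) against dividing HOPX-gated cells (416 and 183), asking whether neuronal progenitors and radial glia that are dividing differ in these genes. UMIs were summed per class and library and fitted with edgeR's quasi-likelihood test over all 10902 genes tested, with library as a block, and a gene was called at a Benjamini-Hochberg adjusted p below 0.05. Of the 45 genes, 44 were higher in EOMES-gated cells and 0 were lower, with a median difference of 0.81 on the log2 scale (1.76-fold), beside a median of 0.02 over all genes tested. Over all genes tested, 16.8% were called higher and 18.9% lower. Without adjustment, 45 genes passed p below 0.05 as higher and 0 as lower, and DESeq2 called 28 higher and 0 lower, beside 6.68% of all genes called higher. The share of all genes passing without adjustment was not counted, here and below, so those counts have no background.

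The 29 gate genes moved the same way as the 45. Their summed level was 4504 and 4124 CPM in dividing EOMES-gated cells against 2469 and 2594 CPM in dividing HOPX-gated cells, and the median dividing cell held 21 and 26 gate UMIs against 5 and 6. Per gate UMI, the 45 genes gave 3.48 and 3.66 UMIs in EOMES-gated cells and 3.30 and 3.57 in HOPX-gated cells. These values overlap across libraries, though the EOMES value was the higher within each library. Among cells with 2 to 6 gate UMIs after thinning to 1500, a setting chosen after the data were seen, 14 of 43 genes tested were called higher and 0 lower, all 14 also called in the full comparison, with a median of 0.42, beside 10.2% of all genes tested in that fit called higher. In cells with 2 to 5 gate UMIs before thinning, also chosen after the data were seen, 11 of 23 tested were higher and 1 lower, beside 14.4% and 18.5% of all genes. The gene called lower there was CKS2, at -0.64 ± 0.23 (adjusted p = 0.035), and 7 of the 23 had a negative sign. These cells were not equal in depth. The HOPX-gated sums held 1460283 UMIs in 217 cells (A) and 574775 in 89 (B), the EOMES-gated sums 824159 in 145 and 241001 in 45. The same number of gate UMIs is thus a larger share of the shallower EOMES-gated cells. After thinning alone, 8 of 29 tested were called higher, beside 8.43% of all genes.

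**Figure D3:**
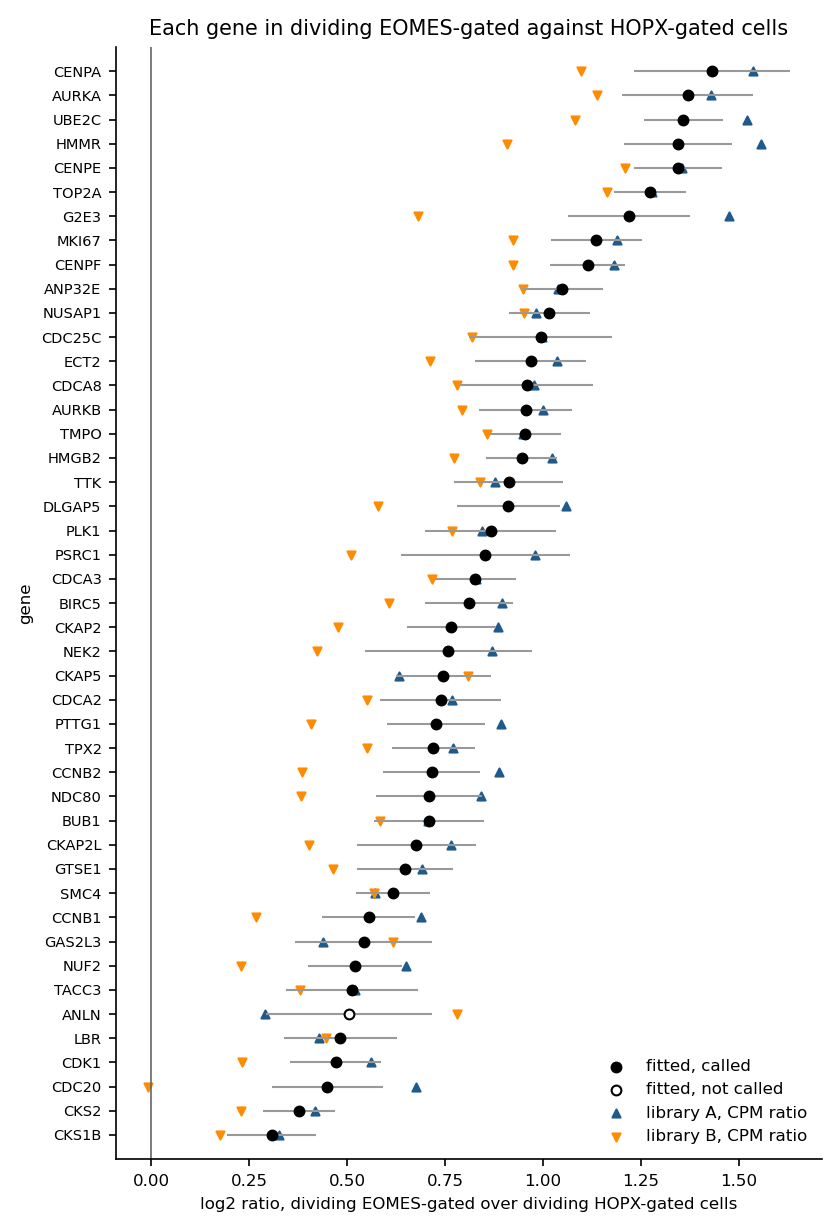
Log2 ratio of dividing EOMES-gated over dividing HOPX-gated cells (x axis) for each of the 45 genes (rows, sorted), with black points for the fitted value, grey bars for its standard error and triangles for the CPM ratio in library A and library B. All fitted values are above 0, from CKS1B at 0.31 to CENPA at 1.43, and CDC20 in library B is the single ratio below 0.

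Kinetochore and centromere genes were among those that differed most, and 7 of 7 were higher. CENPA was at 22.3 and 27.4 CPM in dividing HOPX-gated cells and at 64.9 and 58.9 CPM in dividing EOMES-gated cells, in libraries A and B. The groups did not overlap, and the fitted difference was 1.43 ± 0.20 (log2, standard error, adjusted p = 2.0e-06). The share of all genes tested whose libraries do not overlap was not counted, so lack of overlap is description only, here and below. CENPE, the kinesin that carries chromosomes to the spindle equator, was at 123 and 123 CPM in HOPX-gated and 315 and 284 CPM in EOMES-gated cells, a difference of 1.34 ± 0.11 (adjusted p = 3.7e-10). CENPF was at 339 and 354 against 770 and 671 CPM, a difference of 1.11 ± 0.10. The other 4 genes, NUF2 and NDC80 of the microtubule-binding complex and the checkpoint kinases BUB1 and TTK, differed by 0.52 to 0.91.

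The anaphase promoting complex and its targets split. UBE2C was at 342 and 505 CPM in dividing HOPX-gated cells and at 982 and 1069 CPM in dividing EOMES-gated cells. Its libraries did not overlap, and its difference was 1.36 ± 0.10 (adjusted p = 4.5e-11). CDC20, the activator of the same complex, was at 127 and 161 CPM against 203 and 160 CPM. The groups overlapped, the fitted difference was 0.45 ± 0.14 (adjusted p = 0.014), and library B alone gave a log2 ratio of -0.0075. PTTG1, the securin that holds back sister separation, was 0.73 ± 0.12 higher, and CDCA3, an adaptor that marks a CDK1 inhibitor for destruction, was 0.83 ± 0.10 higher.

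All 5 Aurora kinase and passenger genes were higher. AURKA, the spindle pole kinase, was at 35.1 and 43.8 CPM in HOPX-gated and at 94.8 and 96.8 CPM in EOMES-gated dividing cells, a difference of 1.37 ± 0.17 (adjusted p = 3.0e-07). Its paralog AURKB was at 162 and 216 CPM against 324 and 374 CPM, a difference of 0.96 ± 0.12. Neither gene overlapped between the classes. BIRC5 (survivin), CDCA8 and TPX2, the activator of Aurora A, differed by 0.72 to 0.96.

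The genes of entry into mitosis were all called, and among them were the smallest differences. CKS1B was at 202 and 230 CPM in HOPX-gated and at 254 and 260 CPM in EOMES-gated dividing cells, a difference of 0.31 ± 0.11 (adjusted p = 0.036). CKS2 was at 423 and 517 against 564 and 606 CPM, a difference of 0.38 ± 0.09. CDK1 was at 151 and 178 against 223 and 209 CPM, a difference of 0.47 ± 0.12. The cyclins CCNB1, at 182 and 226 against 294 and 272 CPM, and CCNB2, at 194 and 259 against 359 and 339 CPM, differed by 0.55 ± 0.12 and 0.72 ± 0.12. These genes were higher in both libraries. None of them overlapped between the classes, with no share of all genes to set beside it. G2E3 was the exception in size, at 56.1 and 75.0 against 156 and 121 CPM, a difference of 1.22 ± 0.16.

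Among spindle genes 10 of 10 were higher. HMMR, a receptor for hyaluronan that also binds spindle microtubules, was at 77.8 and 106 CPM in HOPX-gated and at 229 and 200 CPM in EOMES-gated dividing cells, a difference of 1.34 ± 0.14 (adjusted p = 1.5e-08). NUSAP1, which bundles spindle microtubules, was at 327 and 327 against 646 and 633 CPM, a difference of 1.02 ± 0.10. The paralogs CKAP2 and CKAP2L differed by 0.77 ± 0.11 and 0.68 ± 0.15. In cytokinesis, ECT2, which activates RhoA at the cleavage furrow, was 0.97 ± 0.14 higher. ANLN, at 26.9 and 21.9 against 32.9 and 37.8 CPM, gave 0.51 ± 0.21 and was the gene that did not pass (adjusted p = 0.066).

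Chromosome and nuclear envelope genes were higher in 6 of 6 and 2 of 2. TOP2A was at 446 and 455 CPM in HOPX-gated and at 1081 and 1020 CPM in EOMES-gated dividing cells, a difference of 1.27 ± 0.09 (adjusted p = 2.3e-11). MKI67 was at 110 and 108 against 251 and 205 CPM, a difference of 1.14 ± 0.12 (adjusted p = 1.3e-08). HMGB2 was at 1367 and 1663 against 2777 and 2842 CPM, a difference of 0.95 ± 0.09, and ANP32E differed by 1.05 ± 0.10. None of these 4 genes overlapped between the classes. TMPO was 0.95 ± 0.09 and LBR 0.48 ± 0.14 higher, and the condensin subunit SMC4 was 0.62 ± 0.10 higher.

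Cells called matched, here and below, were only kept within the same window of gate UMIs. Gate levels inside the window were not compared between classes, so a difference beyond gate level was not tested. Among cells matched on thinned gate UMIs, TOP2A was 0.93 ± 0.14 and UBE2C 0.95 ± 0.16 higher in EOMES-gated cells (edgeR, adjusted p = 4.2e-06 and 2.7e-05). CENPE was 0.95 ± 0.20 and ANP32E 0.84 ± 0.16 higher (adjusted p = 0.00047 and 0.00010), and these genes were each called. CENPA, at 1.43 ± 0.45, was called as well (adjusted p = 0.019). CCNB1 was at -0.22 ± 0.21 and CDC20 at -0.19 ± 0.23 in these cells, with a sign opposite to that in all dividing cells and neither called.

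**Figure D4:**
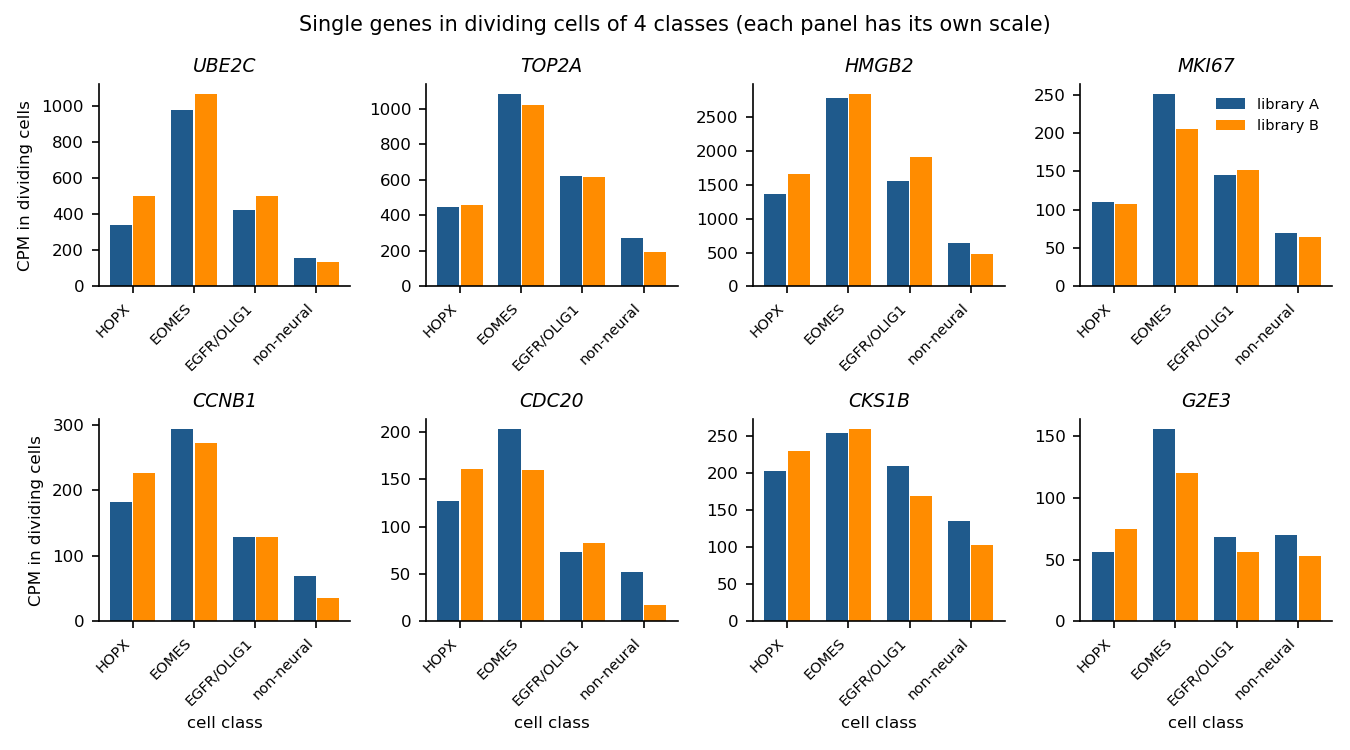
CPM of 8 genes in dividing cells of 4 classes (x axis), 1 bar per library, each panel with its own y axis from 0. UBE2C and TOP2A lie between 982 and 1081 CPM in EOMES-gated cells and at or below 621 CPM in the other classes, CCNB1 and CDC20 are lower in EGFR/OLIG1-gated than in HOPX-gated cells in both libraries, and CKS1B lies between 169 and 260 CPM in the 3 neural classes.

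The share of dividing cells with at least 1 MKI67 UMI gave the same order between the HOPX and EOMES classes. It was 31.7% and 35.5% in HOPX-gated, 53.3% and 58.7% in EOMES-gated, 43.1% and 36.7% in EGFR/OLIG1-gated and 13.8% and 14.7% in non-neural dividing cells. In excitatory neurons with no gate UMI, which should lack the gene, it was 0.617% and 0.562%, in a class with a median of 3391 and 3000 UMIs per cell. Thinned to 1500 UMIs, the shares were 11.8% and 13.7% in HOPX-gated, 24.9% and 21.6% in EOMES-gated, 14.7% and 14.3% in EGFR/OLIG1-gated and 4.60% and 10.5% in non-neural dividing cells, and 0.288% and 0.281% in the neurons.

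The second comparison set dividing EGFR/OLIG1-gated cells (109 and 49) against dividing HOPX-gated cells. Of the 45 genes 3 were higher and 2 lower, beside 7.34% and 9.39% of all genes tested, and 40 did not pass. The higher share, 3 of 45, is near that background. The median difference was 0.13. The gate genes were at 2895 and 3041 CPM in EGFR/OLIG1-gated cells, against 2469 and 2594 CPM.

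The 3 genes called higher, a share near the background, were TOP2A, ANP32E and TMPO. TOP2A was at 621 and 616 CPM in EGFR/OLIG1-gated cells against 446 and 455 CPM in HOPX-gated cells, which do not overlap, a difference of 0.47 ± 0.10 (adjusted p = 0.0020). ANP32E was at 220 and 229 against 169 and 160 CPM (0.44 ± 0.13, adjusted p = 0.021), and TMPO at 676 and 772 against 580 and 568 CPM (0.32 ± 0.10, adjusted p = 0.032). MKI67, at 145 and 152 against 110 and 108 CPM, gave 0.44 ± 0.16 and missed the threshold (adjusted p = 0.052). TOP2A gave -0.09 ± 0.23 after thinning to 1500 UMIs and 0.54 ± 0.17 in cells matched on thinned gate UMIs (adjusted p = 0.90 and 0.041).

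The 2 lower genes were CDC20 and CCNB1, and 2 of 45 is below the background share called lower. CDC20 was at 72.7 and 82.8 CPM in EGFR/OLIG1-gated cells against 127 and 161 CPM in HOPX-gated cells, a difference of -0.88 ± 0.22 (adjusted p = 0.0051). CCNB1 was at 129 and 129 against 182 and 226 CPM, a difference of -0.61 ± 0.17 (adjusted p = 0.011). Neither overlapped between the classes. The CCNB1 paralog CCNB2, at 131 and 205 against 194 and 259 CPM, gave -0.48 ± 0.17 and did not pass (adjusted p = 0.055). DESeq2 called 1 gene higher (3.54% of all genes) and 0 lower here, and without adjustment 7 passed as higher and 3 as lower.

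Other genes of the cycle, from lists that hold none of the 45, are set beside them. Over all genes tested, 7.34% were called higher and 9.39% lower in EGFR/OLIG1-gated over HOPX-gated dividing cells. In EOMES-gated over HOPX-gated dividing cells these shares were 16.8% and 18.9%. Of 36 tested S phase genes, 9 were higher in dividing EGFR/OLIG1-gated than HOPX-gated cells and 0 lower (edgeR), led by CDCA7 at 0.78 ± 0.26, the replication cofactor DSCC1 at 0.76 ± 0.23 and the helicase subunit MCM5 at 0.66 ± 0.22. Their summed level was 4117 and 3853 CPM against 3052 and 2978 CPM. Of 39 other mitosis genes 6 were higher and 3 lower, led by the centromere gene CENPI at 0.83 ± 0.27, the tubulin TUBB4B at -0.75 ± 0.11 and the kinetochore gene KNSTRN at -0.71 ± 0.18. The lower share, 3 of 39, is below the background share called lower. In EOMES-gated over HOPX-gated dividing cells, 12 S phase genes were higher and 2 lower (median 0.22), with CDCA7 at 1.96 ± 0.17, and 28 other mitosis genes were higher and 1 lower (median 0.53), with the phosphatase CDC25B at 1.80 ± 0.17.

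The third comparison set dividing EGFR/OLIG1-gated against dividing EOMES-gated cells. It shares its sums with the first 2 comparisons and is given by its own values. Of the 45 genes 35 were lower and 0 higher, beside 7.16% lower and 7.44% higher over all genes tested, with a median of -0.76. Without adjustment 40 passed as lower and 0 as higher, and DESeq2 called 20 lower (3.19% of all genes) and 0 higher. The gate genes were lower too (2895 and 3041 against 4504 and 4124 CPM), and in cells matched on thinned gate UMIs 5 of 43 genes tested were called lower and 0 higher, with a median of -0.39, beside 3.58% of all genes called lower. In cells with 2 to 5 gate UMIs before thinning, 0 of 23 were called in either direction, beside 6.1% of all genes called lower, with a median of -0.04, so no call was left.

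The activator of the anaphase promoting complex differed most. CDC20, at 72.7 and 82.8 CPM in EGFR/OLIG1-gated and 203 and 160 CPM in EOMES-gated cells, gave -1.33 ± 0.21 (adjusted p = 4.0e-05). CENPA gave -1.20 ± 0.28, CCNB2 -1.20 ± 0.16, UBE2C -1.19 ± 0.11, CCNB1 -1.17 ± 0.16 and G2E3 -1.17 ± 0.21. NEK2 at -1.12 ± 0.33, HMMR at -1.11 ± 0.18, CENPE at -1.07 ± 0.14, PLK1, the Polo kinase, at -1.05 ± 0.24, PTTG1 at -1.04 ± 0.16 and CDCA8 at -1.03 ± 0.24 followed. All 4 genes of the anaphase promoting complex group and all 5 Aurora and passenger genes were called, and 8 of 9 entry genes, CDK1 being the one not called (-0.41 ± 0.15, adjusted p = 0.061). By the ratio in library B, ECT2 gave -0.21 and NEK2 -0.44, against fitted values of -0.86 and -1.12. The 5 genes called in matched cells were HMGB2, UBE2C, CDCA3, CENPE and G2E3, between -0.40 and -1.42.

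**Figure D5:**
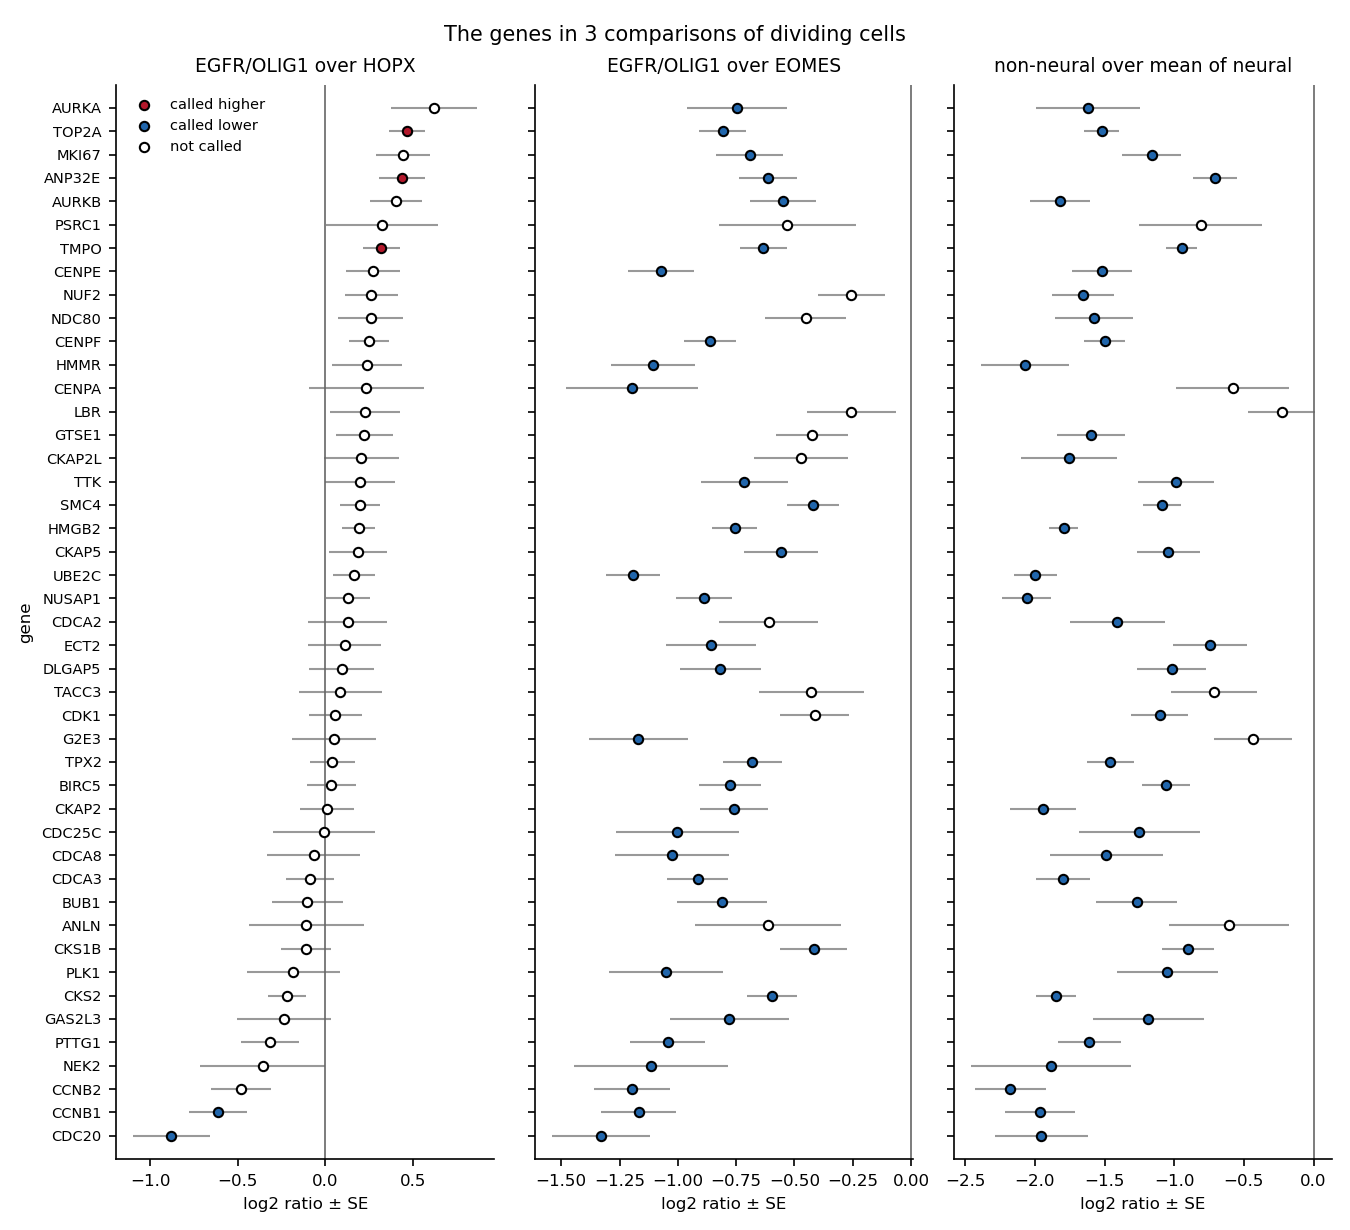
Log2 ratio with its standard error (x axes) of the 45 genes (rows, in the order of the left panel) in dividing EGFR/OLIG1-gated over HOPX-gated, EGFR/OLIG1-gated over EOMES-gated, and non-neural over the mean of the 3 neural classes, with filled points for called genes. In the left panel 5 genes are called, in the middle panel 35 are called lower and in the right panel 39 are called lower.

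The fourth comparison set dividing non-neural cells (87 and 143) against the mean of the 3 dividing neural classes. Of the 45 genes 39 were lower and 0 higher, beside 10.8% lower and 15.4% higher over all genes tested, with a median of -1.46. Without adjustment 40 passed as lower and 0 as higher, and DESeq2 called 34 lower (5.78% of all genes) and 0 higher. The non-neural cells had a median of 3 gate UMIs and of 2220 and 2121 UMIs in all, against at least 5479 in each neural class, and their gate genes summed to 1656 and 1432 CPM. In cells matched on thinned gate UMIs 25 of 43 genes tested were lower and 0 higher (median -0.92), beside 9.98% of all genes called lower in that fit. In cells matched on 2 to 5 gate UMIs without thinning, where the same number of UMIs is a larger share of the shallower non-neural cells, 0 of 23 were lower and 11 higher (median 0.77), beside 7.04% and 14.2% of all genes. The direction therefore turned with the way cells were matched.

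Among single genes CCNB2 was at 69.7 and 38.1 CPM in dividing non-neural cells, below its lowest neural value of 131 CPM, a difference of -2.18 ± 0.26 (adjusted p = 2.8e-07). HMMR gave -2.07 ± 0.32, NUSAP1 -2.06 ± 0.18, UBE2C -2.00 ± 0.16, CCNB1 -1.96 ± 0.25 and CDC20 -1.95 ± 0.34. CKAP2 at -1.94 ± 0.24, NEK2 at -1.88 ± 0.57, CKS2 at -1.85 ± 0.15, AURKB at -1.82 ± 0.22, CDCA3 at -1.80 ± 0.20 and HMGB2 at -1.79 ± 0.11 followed. HMGB2 was at 641 and 477 CPM, below all 6 neural values, the lowest of which was 1367 CPM. The 6 genes that did not pass were LBR, ANLN, TACC3, PSRC1, G2E3 and CENPA. LBR, at 61.0 and 67.3 CPM in non-neural cells, lay within the neural range of 61.7 to 95.9 CPM for library B and just below it for library A.

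Several genes called in this comparison differed in size between the libraries. The sign was the same in both libraries for 43 of the 45 genes. That count was 44 in EOMES-gated over HOPX-gated and 45 in EGFR/OLIG1-gated over EOMES-gated dividing cells. It was only 28 in EGFR/OLIG1-gated over HOPX-gated dividing cells. Taking the libraries one at a time, CDC20 gave -1.19 (A) and -2.77 (B) and PTTG1 -1.01 and -2.21, while CCNB2 gave -1.54 and NEK2 -1.13 in library A. The make-up of the class also differed between libraries, with 39 and 77 dividing endothelial cells and 37 and 42 dividing microglia. The 45 genes summed to 3831 and 3448 CPM in the dividing endothelial cells and to 5399 and 3065 CPM in the dividing microglia. With endothelial cells alone as the non-neural side 33 genes were called lower and 0 higher, beside 8.32% of all genes called lower. The dividing non-neural cells held FABP7 RNA at levels below those of the 3 neural progenitor classes, INSM1 RNA at levels between those of HOPX-gated and EOMES-gated cells, and a higher mitochondrial share than HOPX-gated cells. The part of either in the result was not tested.

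The context lists were lower in these cells as well, beside 10.8% of all genes tested called lower and 15.4% called higher. Of the 36 tested S phase genes 19 were lower and 0 higher (edgeR), with MCM5 at -1.84 ± 0.42, TIPIN at -1.66 ± 0.36 and the licensing inhibitor GMNN at -1.52 ± 0.30. Of the 39 other mitosis genes 27 were lower and 0 higher, with KNSTRN at -2.13 ± 0.30, the transcription factor MYBL2 at -1.82 ± 0.34 and the kinetochore gene DSN1 at -1.81 ± 0.29.

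Over all cells of a class, dividing or not, the same 2 comparisons with HOPX-gated cells were made. The 45 genes summed to 4633 CPM in library A and 4764 CPM in library B in HOPX-gated cells, to 8983 and 8281 CPM in EOMES-gated cells and to 5022 and 5890.4 CPM in EGFR/OLIG1-gated cells. Of the 45 genes 42 were higher and 0 lower in EOMES-gated cells, beside 23.4% higher and 25.1% lower over all 13426 genes tested, with a median of 0.89. Without adjustment 44 passed as higher and 0 as lower, and DESeq2 called 34 higher (15.6% of all genes) and 0 lower. CENPA at 1.60, UBE2C at 1.48, HMMR at 1.46, AURKA at 1.45, CENPE at 1.45 and TOP2A at 1.35 led. MKI67 gave 1.25, CENPF 1.23, G2E3 1.16, NUSAP1 1.08, ECT2 1.07 and AURKB 1.06. CKS1B, with 0.02, GAS2L3 and ANLN did not pass.

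In all EGFR/OLIG1-gated over all HOPX-gated cells 4 genes were higher and 0 lower, beside 11.0% higher and 14.0% lower over all genes tested, with a median of 0.18. They were AURKA at 0.70, TOP2A at 0.56, TMPO at 0.43 and ANP32E at 0.41. After thinning to 1500 UMIs AURKA gave -0.91 ± 0.95 (adjusted p = 0.60), the opposite sign. The share called higher, 4 of 45, is near the background. Without adjustment 6 passed as higher and 2 as lower, and DESeq2 called 2 higher (7.88% of all genes) and 0 lower. CDC20 gave -0.82 and CCNB1 -0.52, neither called.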

How the data were processed

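Single-cell RNA was measured in 2 libraries of wild-type ferret cortex. The deposited matrix holds UMI counts per gene and cell as whole numbers without normalization, and per the submitters' processing notes it was made with Cell Ranger. The version, the genome build and any cell filter were not given in the sources used here. Each barcode suffix was read as a library. No cell held fewer than 1501 UMIs.

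Of all cells, 14 with fewer than 500 genes or over 10% mitochondrial UMIs were dropped. The 13 mitochondrial genes came from the RefSeq annotation of ASM1176430v1.1, where all 45 measured members also matched by symbol. No doublet caller was used. Cells passing gates of 2 classes were left out, among them 75 with HOPX and EOMES and 204 with HOPX and a non-neural gate, and an alternative dropped the top 2% of cells by UMIs in each library. Droplet RNA from other cells was not removed. Endothelial (at least 3 UMIs over 2 of 7 genes), perivascular (4 over 2 of 9), microglia (3 over 2 of 8) and red cell (3 HBM UMIs) gates made the non-neural class. Neurons needed 3 UMIs over 2 excitatory or inhibitory markers and no other gate.

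UMIs were summed per class and library, with at least 20 cells in each sum. Sums of dividing cells (8) and of all cells (10) were analysed with edgeR 4.0.16 under R 4.3.3 (TMM, filterByExpr, quasi-likelihood F-test, class plus library) and adjusted by Benjamini-Hochberg over all genes tested, leaving out class markers and gate genes. Class and library share the same 2 samples, so every library holds every class. Alternatives were DESeq2 1.42.0, no filter, a gate of 3 UMIs over 3 genes, an S phase gate, strict class gates, thinning to 1500 UMIs, only the classes compared, no block, and each library alone. The fitting code was run on simulated counts with planted changes, drawn from a shared mean profile with no other class or library differences. That run checks the code and not the calls made here. Exact binomial intervals are at 95%.

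The 46 genes, the context lists and the tests were chosen with earlier results of these data known, so no list is independent evidence. Genes named are the called ones in order of size (up to 12 in each direction), the 6 highest and 6 lowest in dividing cells, the 8 highest and 8 lowest by share in dividing cells, paralog pairs, MKI67 and TOP2A, and the 3 leading genes of each context list.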

Additional observations from a re-analysis of the deposited data

How the results depend on the processing

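The count called higher in dividing EOMES-gated over HOPX-gated cells, 44 of 45, was 28 with DESeq2, 8 after thinning to 1500 UMIs, and, by alternatives chosen after seeing the data, 14 in cells matched on thinned gate UMIs and 11 in cells matched on 2 to 5 gate UMIs, where 1 was lower. Fewer genes and UMIs entered the last 3. For dividing EGFR/OLIG1-gated over HOPX-gated cells the count higher, 3, was 1 with DESeq2, with the gate of 3 UMIs and in matched thinned cells, 6 with only those classes fitted, 9 with the S phase gate and with strict class gates, and 0 after thinning. The count lower, 2, was 0 with DESeq2 and in both kinds of matched cells, 5 with the gate of 3 UMIs and 1 after thinning. Without the block it gave 2 higher and 2 lower. Among these alternatives for EGFR/OLIG1 over HOPX, the share of all genes called was counted only for DESeq2 higher. The other counts have no background beside them, so whether they exceed it was not tested.

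For EGFR/OLIG1-gated over EOMES-gated cells the count lower, 35, was 20 with DESeq2, 10 after thinning, 5 in matched thinned cells and 0 in cells with 2 to 5 gate UMIs. For non-neural cells the count lower, 39, was 25 in matched thinned cells, and 0 with 11 higher in cells with 2 to 5 gate UMIs, where 21 of 23 tested genes had the other sign. Over all cells, EOMES over HOPX gave 19 higher after thinning (42 in the report). EGFR/OLIG1 over HOPX, 4 higher and 0 lower, gave 9 and 3 without the filter, 2 higher with DESeq2, 10 and 3 with only those classes fitted, 11 higher with strict class gates, 1 and 1 after thinning, and 1 lower without the top 2% of cells. Among the alternatives over all cells, the share of all genes called was counted only for DESeq2 higher. The other counts over all cells, and the 10 after thinning, have no background beside them. The cause of these shifts was not tested.

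Single genes turned sign in EOMES over HOPX dividing cells after thinning (CCNB1 -0.039, CDK1 -0.036, CKS2 -0.093), in matched thinned cells (TTK -0.0010, CCNB1 -0.22, GAS2L3 -0.18, CDC20 -0.19, CKS2 -0.058) and in library B alone (CDC20 -0.0075, against 0.68 in library A). Others were TOP2A in EGFR/OLIG1 over HOPX (-0.085 after thinning), ECT2 in non-neural cells (0.39, matched thinned), and over all cells, after thinning, CKS2 (-0.085) and LBR (-0.20) in EOMES and AURKA (-0.91) in EGFR/OLIG1 over HOPX. None of these turned values was called. In cells with 2 to 5 gate UMIs, 7 of 23 genes turned in EOMES over HOPX, of which CKS2 was called lower (-0.64), and 8 of 23, none called, in EGFR/OLIG1 over EOMES. In non-neural cells 21 of 23 turned there, and 10 of the genes called lower in the full comparison were called higher. Mean shares passing the gate after thinning were 21.5% HOPX, 29.9% EOMES, 25.5% EGFR/OLIG1, 24.0% non-neural, 2.95% excitatory and 11.1% inhibitory.

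Fits with no replicate block called 43 of the 44, 33 of the 35 and 39 of the 39 genes called over all dividing cells for EOMES over HOPX, EGFR/OLIG1 over EOMES and non-neural cells. With 1 library left out no degrees of freedom remain, so single libraries gave ratios only. For the non-neural comparison, fitting only the classes compared is the same fit. The promoter motif alternative was not run, because no promoter sequences were used here. Depth limits the low genes: ANLN and NEK2 held 551 and 543 UMIs in all.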

Other observations

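Dividing cells outside the 4 compared classes held these genes at different levels. Inhibitory neuron-gated cells that passed the dividing gate (133 of 966 in library A and 62 of 289 in library B) summed to 10895 and 13029 CPM over the 45 genes, above the dividing HOPX-gated cells in both libraries. Their median of gate UMIs was 3 and 12, so the libraries differed. Excitatory neuron-gated cells that passed (333 of 3793 and 139 of 1655) summed to 2298 and 3152 CPM with a median of 2 gate UMIs, the fewest that the gate allows. PDGFRA/SOX10-gated cells (17 and 4 dividing) summed to 9822 and 11304 CPM. Of the cells that passed the dividing gate, 569 and 333 passed no class gate, 80 and 111 passed gates of more than 1 progenitor or non-neural class, and 18 and 10 passed both neuron gates.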
